A study of Mus musculus with 2 samples.

Results

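The STAT genes Stat2, Stat3, Stat4, Stat5a, Stat5b and Stat6, together with Irf9, were followed in unstimulated mouse macrophages. The 7 genes were chosen by name, through the symbols of their Ensembl identifiers, from the 22060 genes of the deposited count table, and all 7 had enough reads to be measured. The tested library (T403A) came from macrophages of C57BL/6 mice with the T403A substitution in STAT2, in which an alanine takes the place of a threonine. The other library (WT) came from wild-type C57BL/6 macrophages. In both, marrow of animals aged 8 weeks was grown in M-CSF, which turns marrow progenitors into macrophages, over 7 days, and the cells received no treatment (0 h). The sources used here do not give how the substitution was introduced, whether 1 or both alleles carry it, or how many animals gave marrow.

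STAT proteins wait in the cytoplasm until a cytokine receptor and its JAK kinases phosphorylate them, after which they pair, enter the nucleus and bind DNA. STAT2 works mainly in the type I interferon pathway: it joins another STAT and IRF9, which supplies most of the DNA contact, in a complex that binds the interferon-stimulated response element (ISRE). STAT3 serves IL-6 and IL-10, STAT4 serves IL-12, STAT5A and STAT5B serve GM-CSF, IL-3 and other growth factors, and STAT6 serves IL-4 and IL-13. These last proteins bind as dimers to GAS elements, short palindromes with a spacer.

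Each genotype was represented by 1 library, with 18658381 counts for T403A and 16033032 counts for WT. Differences therefore have no replicate check and no p-values, and each statement compares these libraries, not the genotypes. Intervals are exact 95% intervals that cover counting error only, and in bulk RNA fewer cells of a type and less RNA per cell cannot be told apart. The macrophage genes Csf1r (109742 reads in T403A and 107205 reads in WT) and Lyz2 (594313 reads in T403A and 549368 reads in WT) were abundant in both libraries. These are raw reads from libraries of unlike size, so they do not give a direction. Of 12 listed macrophage genes T403A had 6 at a lower level and 0 at a higher level, and the lower ones included the scavenger receptor genes Marco, 11.6-fold lower, and Msr1, 3.62-fold lower. Of 20 listed cell cycle genes 16 were higher in T403A and 0 lower. Both lists were scored by the rule given below, which called 10.8% of all measured genes lower and 13.5% higher. The part of the macrophage and cell cycle shifts in the values below was not tested.

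Stat2 and Irf9, which encode the interferon-specific parts of the ISRE-binding complex, were both lower in T403A, and the ratios of the other 5 genes were within 1.5-fold. Stat2 (ENSMUSG00000040033, chromosome 10, 128270559 to 128292849, plus strand, GRCm38) had 1683 reads in T403A, against 5641 reads in WT. After scaling with TMM, which sets the libraries to a common size through the bulk of their genes, this was 84.4 CPM, the counts relative to the scaled library total, in T403A and 376 CPM in WT, which is 4.46-fold lower (4.22 to 4.71). Since a substitution need not alter how many reads a gene gives, Stat2 counts cannot serve to check the genotype labels.

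Irf9 (ENSMUSG00000002325, chromosome 14, 55603571 to 55610030, plus strand) had 916 reads in T403A, against 1883 reads in WT, or 45.9 CPM in T403A and 126 CPM in WT. That is 2.73-fold lower (2.52 to 2.96). Among the 11199 measured genes, those with a summed count of at least 20, the log2 ratio of Stat2 (-2.16) was the 241st from the low end and that of Irf9 (-1.45) the 437th. A gene was called lower or higher when it differed by at least 1.5-fold with an interval that excluded 1. By this rule 2 of the 7 genes were called lower and none higher, where 10.8% of all measured genes were lower (1214 genes) and 13.5% higher (1515 genes). With libraries scaled by their totals, which raises every log2 ratio by 0.19, 890 of all genes were lower and 2290 higher.

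**Figure D1:**
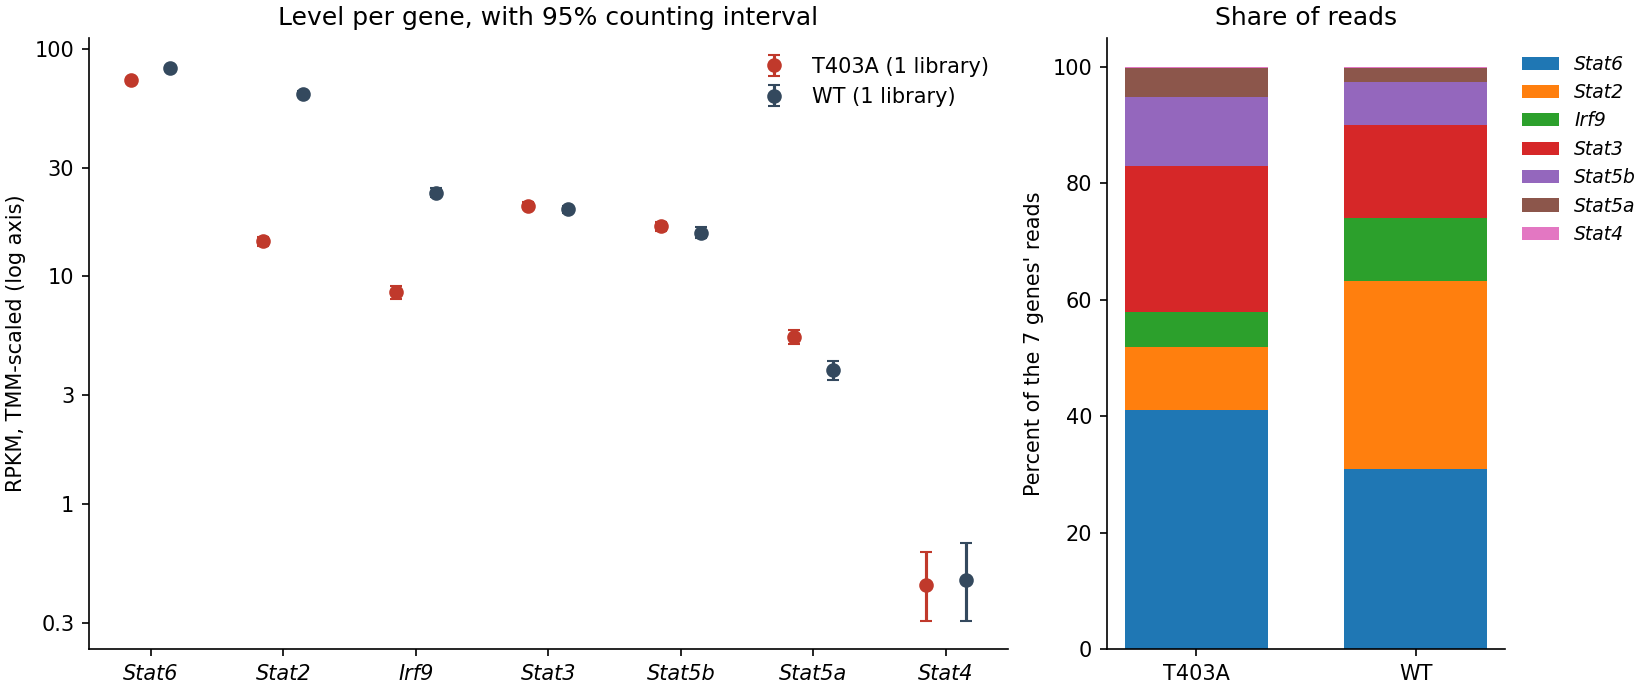
Left, level of each gene in the T403A and WT libraries as RPKM (TMM-scaled CPM per kilobase of gene, log axis), with 95% counting intervals; right, percent of the 7 genes' reads taken by each gene. Stat2 and Irf9 stand lower in T403A, at 14.2 and 8.53 RPKM, than in WT, at 63.5 and 23.3 RPKM. The points of the other genes lie closer together. Among these, the intervals of Stat5a (5.41 RPKM in T403A, 3.86 in WT) and Stat6 (72.5 in T403A, 82.1 in WT) do not overlap between libraries.

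The difference between Stat2 and Irf9 was also seen without any scaling between libraries. The T403A library held 0.544 Irf9 reads per Stat2 read (0.502 to 0.590), against 0.334 in the WT library (0.317 to 0.352). Per length this was 0.599 in T403A and 0.367 in WT. These intervals do not overlap, so relative to Irf9 the Stat2 reads were fewer in T403A beyond counting error.

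The promoters of these genes are shown because that of Stat2 holds a match to the ISRE core. The sequences are RefSeq windows on GRCm38.p6, cut to the 250 bases before the start site, 5′ to 3′ on the gene's strand. Capitals mark matches to the ISRE core (GAAA, any 2 bases, GAAA) or to the GAS forms (TTC, a spacer of any 3 or any 4 bases, GAA), searched on both strands of the full window, which runs 50 bases past the start. All 7 genes had a promoter window, with 11 windows in all. The Stat2 window is at chr10:128270248-128270497 (plus strand) and the first of the Irf9 windows at chr14:55603735-55603984 (plus strand).
Stat2: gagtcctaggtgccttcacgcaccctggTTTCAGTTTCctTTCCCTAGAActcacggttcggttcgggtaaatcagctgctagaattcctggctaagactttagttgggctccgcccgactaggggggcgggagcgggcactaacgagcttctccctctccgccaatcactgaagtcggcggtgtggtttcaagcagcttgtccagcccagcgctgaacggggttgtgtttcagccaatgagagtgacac
Irf9: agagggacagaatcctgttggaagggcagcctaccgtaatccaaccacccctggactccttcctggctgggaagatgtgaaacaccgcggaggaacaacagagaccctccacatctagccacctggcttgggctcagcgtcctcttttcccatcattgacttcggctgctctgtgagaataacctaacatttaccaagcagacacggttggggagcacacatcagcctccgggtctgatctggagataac

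In the Stat2 window an ISRE core lies at -222 to -213 on the minus strand, followed at -210 to -201 by a GAS form with a 4-base spacer. The Irf9 windows held no ISRE core, and a GAS form with a 4-base spacer lay at 2 to 11 bases past the first start. A second start of Stat4 had an ISRE core at -97 to -88. No window of Stat3, Stat5a, Stat5b or Stat6 held any of the 3 patterns. Of 32851 RefSeq promoter windows, 3.44% held the ISRE core, 8.30% the GAS form with a 3-base spacer and 6.95% the one with a 4-base spacer. A match describes the letters and does not show binding. The matches of the 3 genes, with 8 bases on either side, the fixed letters of the pattern in capitals and the strand that reads as the pattern is written, are as follows.
Stat2 ISRE core (chr10:128270276-128270285): agggaaagGAAActGAAAccagggtg
Stat2 GAS form (chr10:128270288-128270297): agtttcctTTCcctaGAActcacggt
Stat4 ISRE core (chr1:52008143-52008152): tgtcttcaGAAAgtGAAAtttagaac
Irf9 GAS form (chr14:55603986-55603995): agataaccTTCctggGAAccagacac

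With Stat2 and Irf9 lower, the make-up of the family's reads differed between libraries. The 7 genes took 0.0830% of all counts in T403A (15485 reads) and 0.109% in WT (17495 reads). Stat2 gave 10.9% of these reads in T403A (exact binomial interval 10.4 to 11.4) and 32.2% in WT (31.6 to 32.9), and Irf9 gave 5.92% in T403A and 10.8% in WT. Stat6 was the largest source in T403A, at 41.1% (40.3 to 41.9), against 31.0% in WT, where Stat2 was the largest. Stat3 gave 25.1% in T403A and 16.1% in WT. The 5 genes other than Stat2 and Irf9 together took 0.0691% of all counts in T403A and 0.0622% in WT, so the smaller family total in T403A came from Stat2 and Irf9.

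Per length, the order of the genes differed too. In T403A the order was Stat6 (72.5 RPKM), Stat3 (20.4), Stat5b (16.6), Stat2 (14.2), Irf9 (8.53), Stat5a (5.41) and Stat4 (0.440). In WT it was Stat6 (82.1 RPKM), Stat2 (63.5), Irf9 (23.3), Stat3 (19.7), Stat5b (15.6), Stat5a (3.86) and Stat4 (0.465). The counting intervals of neighbours in either order did not overlap, but in T403A Stat2 and Stat5b changed places when the longest annotated transcript replaced the deposited gene length. Stat2 per Stat3 was 0.696 per length in T403A (0.657 to 0.738) and 3.22 in WT (3.08 to 3.37), a reversal of which gene is the more abundant. Stat2 exceeded the RPKM of 72.9% of measured genes in T403A and of 93.7% in WT.

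**Figure D2:**
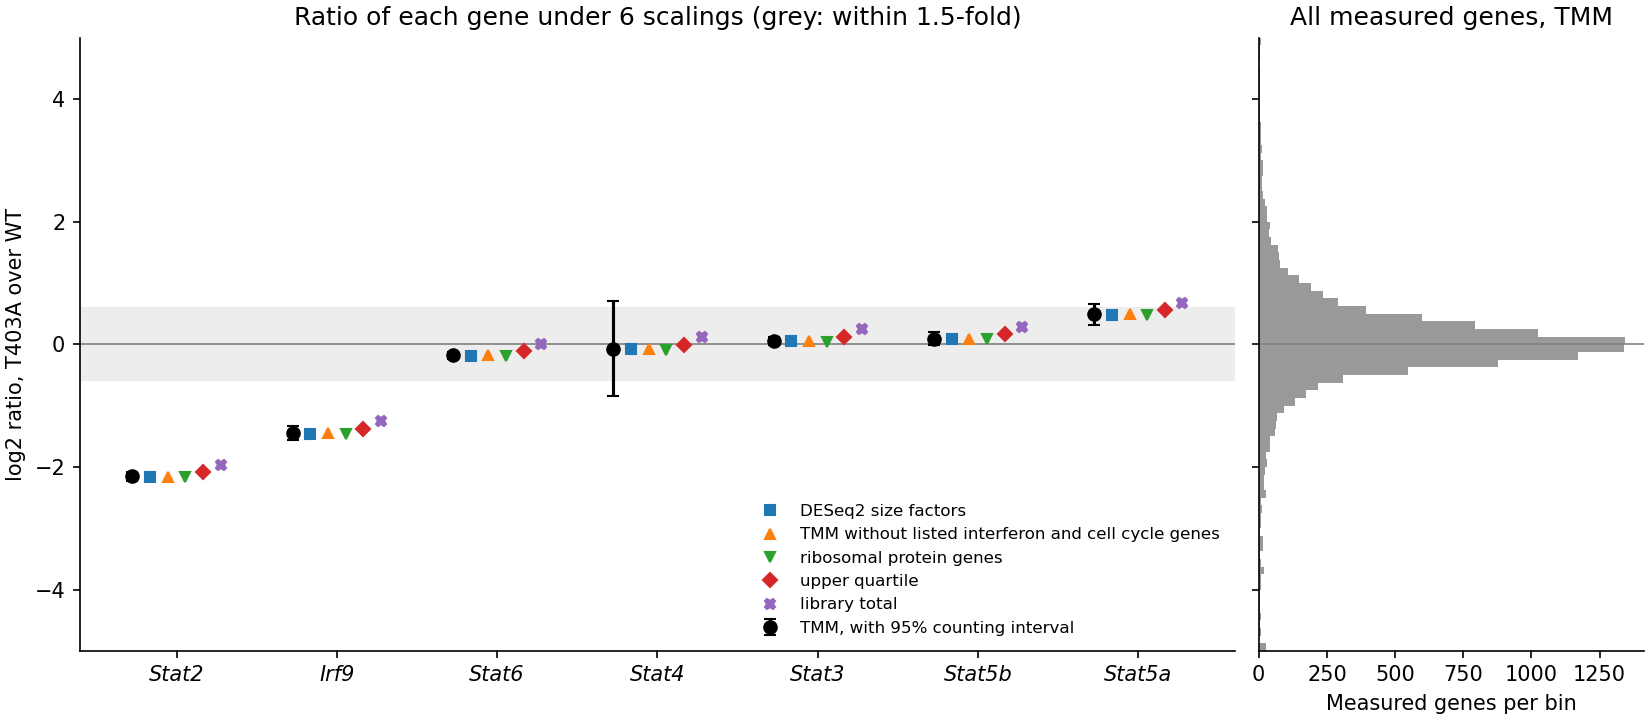
Left, log2 ratio T403A over WT of each gene under 6 ways of scaling the libraries, with the 95% counting interval on the TMM value and the range within 1.5-fold in grey; right, the number of measured genes per log2 ratio bin, with values past 5 in the end bins. Stat2 and Irf9 lie below the grey band under every scaling shown, and Stat5a leaves it upward with the library total alone.

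Stat6, the IL-4 and IL-13 factor (ENSMUSG00000002147, chromosome 10, 127642986 to 127660957), was the most abundant of the genes per length in both libraries. It had 6362 reads in T403A (319 CPM), against 5421 reads in WT (361 CPM), 1.13-fold lower (1.09 to 1.17). Its interval excluded 1 under TMM, but the difference was under 1.5-fold. Scaled by library totals its direction turned, to a log2 ratio of 0.0121. Stat6 lies on the same chromosome as Stat2, with 610 kb between them.

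Stat3, the IL-6 and IL-10 factor (ENSMUSG00000004040, chromosome 11, 100885098 to 100939540, minus strand), had 3885 reads in T403A (195 CPM) and 2817 reads in WT (188 CPM). The T403A to WT ratio was 1.04 (0.988 to 1.09), within counting error of 1. Stat5b (ENSMUSG00000020919, chromosome 11, 100780731 to 100850724) had 1835 reads in T403A (92.0 CPM) and 1293 reads in WT (86.2 CPM), a ratio of 1.07, or 0.09 on the log2 scale (-0.01 to 0.20). Under TMM neither gene differed between the libraries by more than counting error. With libraries scaled by their totals or by the upper quartile, the intervals of both lay above 1, still within 1.5-fold.

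Under TMM, Stat5a was the only STAT gene whose interval lay above a ratio of 1. Stat5a (ENSMUSG00000004043, chromosome 11, 100859351 to 100885169) had 770 reads in T403A (38.6 CPM) and 413 reads in WT (27.5 CPM). The ratio of 1.40 (1.24 to 1.58) was under the 1.5-fold mark, and its log2 value of 0.49 became 0.68, past the mark, when libraries were scaled by their totals. Within a library, which needs no scaling, there were 0.420 Stat5a reads per Stat5b read in T403A (0.385 to 0.457) and 0.319 in WT (0.285 to 0.357). These intervals do not overlap.

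Stat5a, Stat5b and Stat3 form a cluster of 159 kb on chromosome 11, and their counts share some sequence. Stat5b and Stat5a stand 8.63 kb apart, and the ends of Stat5a and Stat3, on opposite strands, overlap by 72 exon bases. Of the different 50-base stretches in annotated transcripts, 8.21% of those of Stat5a also occur in Stat5b, and 10.98% of those of Stat5b occur in Stat5a. At 100 bases these shares were 3.44% and 4.79%. The sources used here give neither the read length nor the treatment of reads with several matches, so the split between Stat5a and Stat5b is uncertain to that extent. No 50-base stretch of Stat6 and 0.788% of those of Stat2 occurred in another gene.

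Stat4, the IL-12 factor of T cells and natural killer cells (ENSMUSG00000062939, chromosome 1, 51987148 to 52107189), was close to the floor of detection. It had 34 reads in T403A (1.71 CPM) and 27 reads in WT (1.80 CPM). With so few reads the interval of the ratio ran from 0.555 to 1.63, so a difference of 1.5-fold was not detectable at this depth. Of its exon bases, 26.7% are also exons of Gm28177, on the same strand, which is not among the genes of the deposited count table. Of 21 T and natural killer cell markers 14 had no read in either library, among them Cd3e, Cd3d, Cd3g, Cd8a and Ncr1. The list summed to 208 CPM in T403A and 48.2 CPM in WT, and most of it was Cd28, with 4031 reads in T403A and 473 reads in WT. Cd4, the other measured marker, went the other way, with 107 reads in T403A and 228 reads in WT. A count of 0 allows up to 3 reads, which is 0.150 CPM in T403A and 0.200 CPM in WT.

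Counts of called genes in the lists that follow stand against 10.8% lower and 13.5% higher among all measured genes. Of 35 listed genes for receptors that lead to STAT proteins, 24 were measured, of which 10 were called lower, 3 higher and 11 neither. Their median log2 ratio was -0.33, against 0.01 over all measured genes. Both subunits of the type I interferon receptor, singled out because they signal to STAT2, were lower: Ifnar1 had 232 CPM in T403A and 447 CPM in WT (1.93-fold lower), and Ifnar2 had 89.0 CPM in T403A and 141 CPM in WT (1.59-fold lower, 1.49 to 1.69). Scaled by library totals, Ifnar2 was within 1.5-fold, and 7 receptor genes were called lower in place of 10.

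Upstream of STAT5, the receptor beta chain genes Csf2rb2 and Csf2rb had the highest mean CPM of the list over both libraries. Csf2rb2 was at 324 CPM in T403A and 1176 CPM in WT, 3.63-fold lower (3.53 to 3.74). Csf2rb was at 468 CPM in T403A and 1013 CPM in WT, 2.17-fold lower (2.11 to 2.22). The pair are close paralogs that can share reads. Il12rb2, the IL-12 receptor chain that engages STAT4, was at 13.3 CPM in T403A and 3.47 CPM in WT, 3.83-fold higher (2.84 to 5.27), the highest ratio of the list. The gene of the other IL-12 receptor chain, Il12rb1, went the other way on few reads, and is named after its values were seen. It had 8 reads in T403A and 19 reads in WT, 3.16-fold lower (1.32 to 8.34). For STAT3 and STAT6, the receptor genes Il6st (207 CPM in T403A and 184 CPM in WT), Il10ra (325 CPM in T403A and 361 CPM in WT) and Il4ra (93.1 CPM in T403A and 128 CPM in WT) were within 1.5-fold. Other receptor genes of these pathways were not, and some are named here after their values were seen. Il13ra1 was 2.02-fold lower, Il2rg 1.97-fold lower and Il21r 2.76-fold lower. Lifr was 3.26-fold higher and Il27ra, on few reads, 2.88-fold higher.

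The JAK kinases were split. Tyk2 and Jak1 are the pair that serves the type I interferon receptor, and both were within 1.5-fold: Tyk2 was at 169 CPM in T403A and 133 CPM in WT, and Jak1 was at 324 CPM in T403A and 347 CPM in WT. Jak2, which serves the GM-CSF and interferon-gamma receptors, was at 62.4 CPM in T403A and 129 CPM in WT, 2.07-fold lower (1.92 to 2.22). Jak3, the partner of the common gamma chain, was at 25.9 CPM in T403A and 42.7 CPM in WT, 1.65-fold lower (1.47 to 1.85), and was within 1.5-fold when libraries were scaled by their totals.

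Of 22 measured inhibitor genes 4 were called lower, 2 higher and 16 neither, where 8470 of 11199 measured genes were neither, and their median log2 ratio was -0.08. The lower ones included genes that STAT proteins themselves induce. Usp18, which blocks the type I interferon receptor, had 92 reads in T403A and 1003 reads in WT, 14.5-fold lower (11.7 to 18.1). Socs2 rested on 6 reads in T403A and 18 reads in WT, 3.99-fold lower (1.52 to 12.3). The other lower genes, named after their values were seen, were Socs1 (29 reads in T403A and 71 reads in WT) and Socs3 (382 reads in T403A and 662 reads in WT). Socs6 and Dusp22, also named afterwards, were 1.54-fold and 2.06-fold higher. The phosphatase gene Ptprc, which encodes CD45, and the ubiquitin ligase gene Cbl had the highest mean CPM and were within 1.5-fold.

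**Figure D3:**
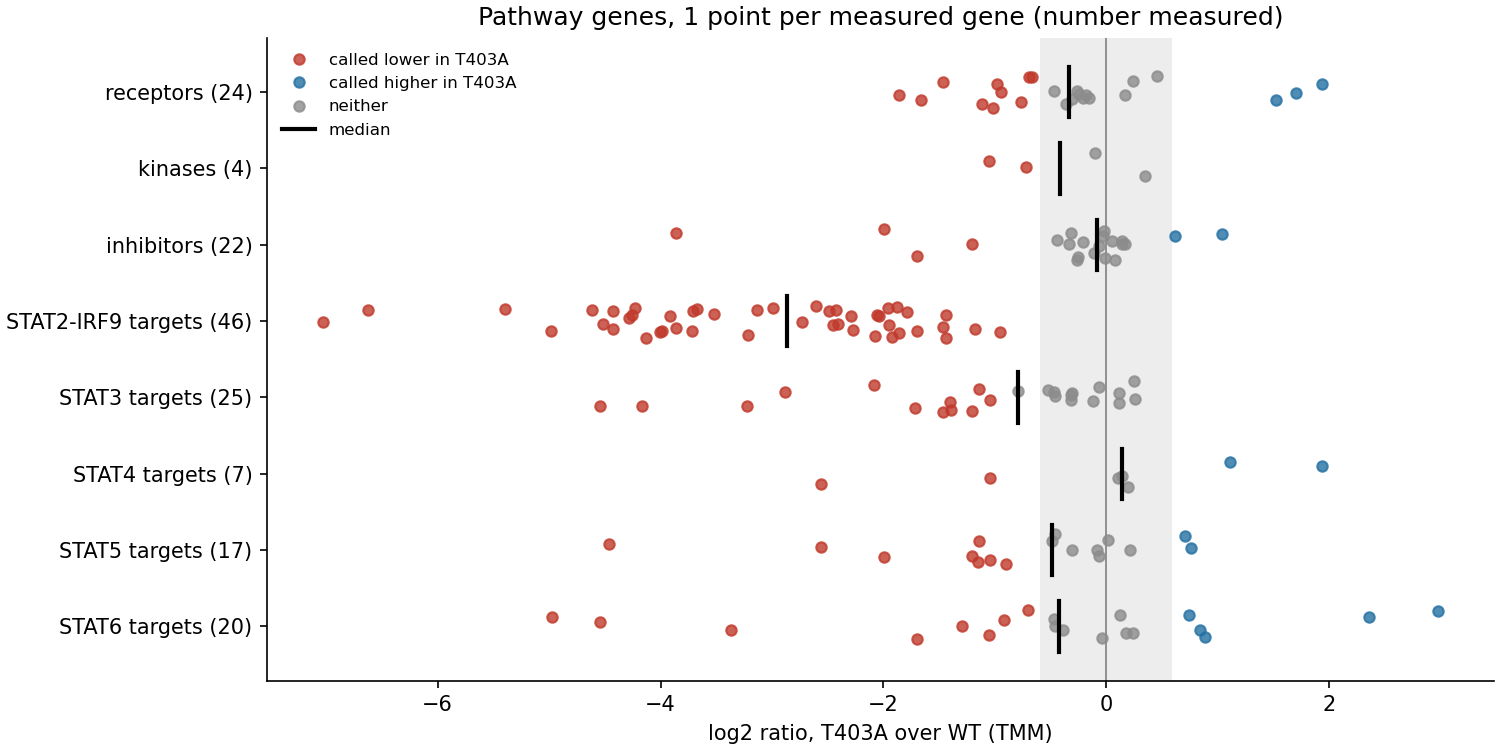
Log2 ratio T403A over WT of each measured gene in lists of receptors, kinases, inhibitors and targets of each STAT, 1 point per gene coloured by call, with the list's median as a black bar and the range within 1.5-fold in grey. All points of the STAT2-IRF9 targets lie below the grey band, while the other target lists spread over both sides of it or up to it.

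Genes known as targets of the individual STATs differed in how many were lower. All 46 listed STAT2-IRF9 targets were lower in T403A, with a median log2 ratio of -2.86. They included Oasl1 (0.853 CPM in T403A and 111 CPM in WT), Ifi44 (1.00 CPM in T403A and 99.1 CPM in WT), Ly6e (4.84-fold lower) and Parp14 (4.16-fold lower). Some of these genes also respond to other STATs. The target lists were chosen with earlier results of these data known, so their counts describe the lists and are not a test.

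Among STAT3 targets, 12 of 25 measured genes were called lower and 0 higher, and the median was -0.79. Il1rn, which encodes the IL-1 receptor antagonist, was 23.3-fold lower (18.9 to 28.9) and the acute phase gene Saa3 17.9-fold lower (17.0 to 18.9), while the survival gene Mcl1 was at 1086 CPM in T403A and 1342 CPM in WT. Stat3 itself was within 1.5-fold under every scaling tried.

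STAT5 and STAT6 targets also had more genes called lower than higher. Of 17 measured STAT5 targets 8 were lower and 2 higher, where 10.8% of all measured genes were lower and 13.5% higher. The median of the STAT5 targets was -0.49. Id1, an inhibitor of helix-loop-helix factors that BMP signals also induce, had 13 reads in T403A and 216 reads in WT, and the cyclin gene Ccnd2 had 21 reads in T403A and 93 reads in WT. Igf1, which with Mcl1 had the highest mean CPM on the list, was at 1281 CPM in T403A and 1102 CPM in WT. Of 20 measured STAT6 targets 8 were lower and 5 were higher, with a median of -0.43. Arg1 (3 reads in T403A and 71 reads in WT) and the transglutaminase gene Tgm2 (10.3-fold lower, 9.56 to 11.1) were lower, and so was the lectin receptor gene Clec7a, at 1.63-fold. Scaled by library totals, Clec7a was within 1.5-fold, and 6 STAT6 targets were called lower in place of 8. The lectin genes Clec10a and Mrc1, named after their values were seen, were higher, at 7.88-fold for Clec10a (6.11 to 10.3) and 5.12-fold for Mrc1 (4.77 to 5.51).

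The STAT4 target list was mostly silent. Of 15 listed genes 8, Ifng and Tbx21 among them, had no read in either library. Of the 7 measured, 2 were lower and 2 were higher. Il12rb2 was higher as given above, and Furin and Hlx were within 1.5-fold. Several genes, such as Il1rn, Socs3 and Mcl1, are on more than 1 list, so the lists are not independent.

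Genes were also grouped by the letters of their promoters, without target lists. This grouping is not independent of the STAT2-IRF9 target list. Ifit1, Ifit3, Ifit3b, Ddx58, Ifitm3, Bst2, Cxcl10, Oas1a and Oas1g are among the genes in both. Of 8938 measured genes with a RefSeq window, 943 were called lower (10.6%) and 1186 higher (13.3%). Genes with the ISRE core were lower in 105 of 360 cases (29.2%) and higher in 41 (11.4%). With the longer form (GGAAA, any 2 bases, GAAACT), which contains the core and occurs in 0.116% of windows, 17 of 23 genes were lower (73.9%) and 0 higher, at a median log2 ratio of -2.49. The GAS forms stayed near the share of all genes: with a 3-base spacer 94 of 734 genes were lower (12.8%), and with a 4-base spacer 58 of 587 (9.88%). Stat2, whose ISRE core is not of the longer form, is 1 of the 105 genes.

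The longer ISRE of the 6 most abundant of the 23 genes is printed with the fixed letters in capitals and the strand that carries it, for comparison with the Stat2 element. The order is by mean CPM. Of these, 5 were lower in T403A: Ifitm3, a viral entry inhibitor, was 2.71-fold lower, the RNA sensor gene Ddx58 6.08-fold, Ifit3 21.5-fold, Ifit1 13.1-fold and Slfn8 6.99-fold. Gna13, which encodes a G protein subunit, was at 196 CPM in T403A and 224 CPM in WT and was not called. Near-identical copies in the Ifit, Slfn and Ifitm families can share reads.
Ifitm3 (chr7:141010731-141010743, minus strand): GGAAAagGAAACT
Ddx58 (chr4:40239813-40239825, plus strand): GGAAAtcGAAACT
Ifit3 (chr19:34583371-34583383, minus strand): GGAAAgtGAAACT
Ifit1 (chr19:34640783-34640795, minus strand): GGAAAgtGAAACT
Gna13 (chr11:109362555-109362567, plus strand): GGAAAcaGAAACT
Slfn8 (chr11:83020848-83020860, plus strand): GGAAAacGAAACT

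**Figure D4:**
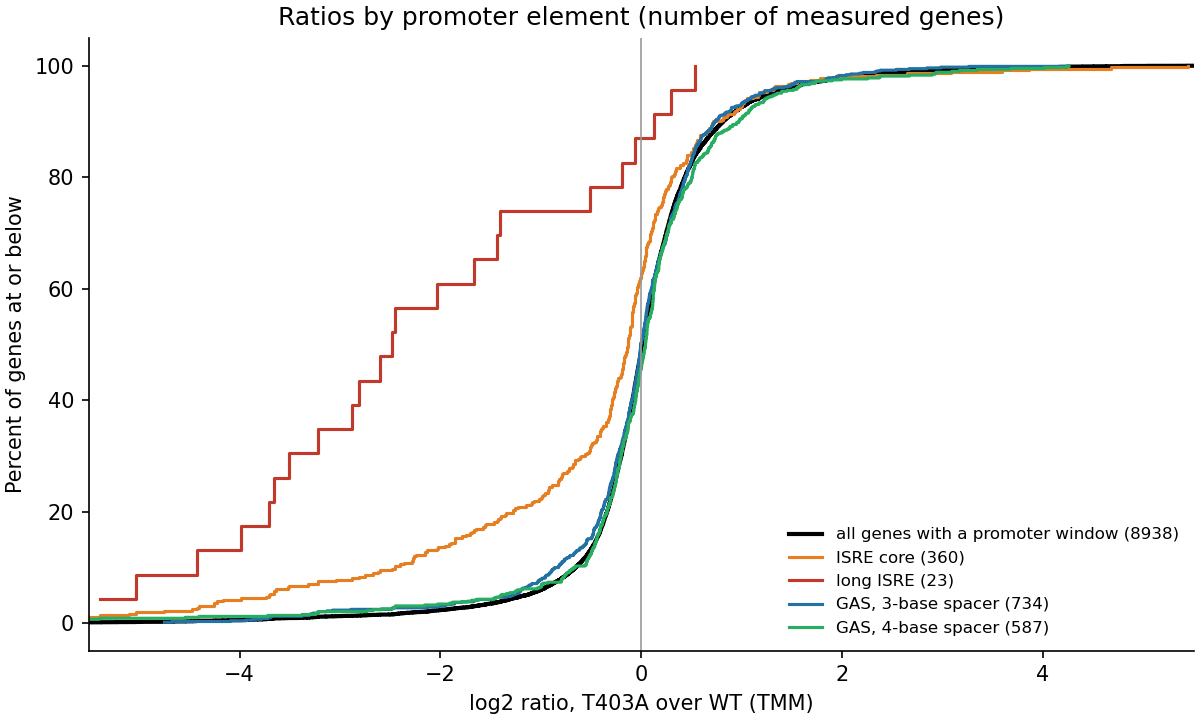
Cumulative percent of measured genes at or below each log2 ratio T403A over WT, for all 8938 genes with a RefSeq promoter window and for those with each element. The curve of the 23 genes with the long ISRE lies far left of the others, the curve of the 360 genes with the ISRE core lies between, and the curves of both GAS forms run close to that of all genes.

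Of 8 measured genes that start within 100 kb of Stat2, 1 was lower and 2 were higher, where 10.8% of all measured genes were lower and 13.5% higher, and their median log2 ratio was -0.06. Pan2, a deadenylase subunit gene that starts 10.5 kb from Stat2, was 1.51-fold higher (1.32 to 1.73), just past the 1.5-fold mark. Coq10a was 1.68-fold higher and Timeless was 2.14-fold lower. Cs, the citrate synthase gene, was at 226 CPM in T403A and 225 CPM in WT.

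Around Irf9, 3 of 13 measured genes were lower and 1 was higher, with a median of -0.15. The lower ones all lie before Irf9, with Emc9 (log2 ratio 0.11) between Psme1 and Psme2. Psme1 (2.10-fold lower, 1.97 to 2.24) and Psme2 (2.86-fold lower, 2.65 to 3.08) encode the interferon-inducible proteasome activator, and Rnf31 (1.84-fold lower, 1.69 to 2.02) encodes a subunit of the linear ubiquitin ligase. Rnf31 and Irf9 share 123 exon bases on the same strand, or 2.28% of the exon bases of Irf9. The gluconeogenic enzyme gene Pck2 was 1.82-fold higher.

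Near Stat5b, which itself did not differ, the RNA sensor gene Dhx58 was at 22.3 CPM in T403A and 148 CPM in WT, 6.65-fold lower (6.00 to 7.38). On the other side of the cluster, the proton pump gene Atp6v0a1 was 2.22-fold higher and Cavin1, on few reads, 3.76-fold higher. Near Stat6, Nab2 was 1.77-fold lower and Nemp1 1.55-fold higher, and 40 exon bases of Nab2 overlap Stat6 on the opposite strand.

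**Figure D5:**
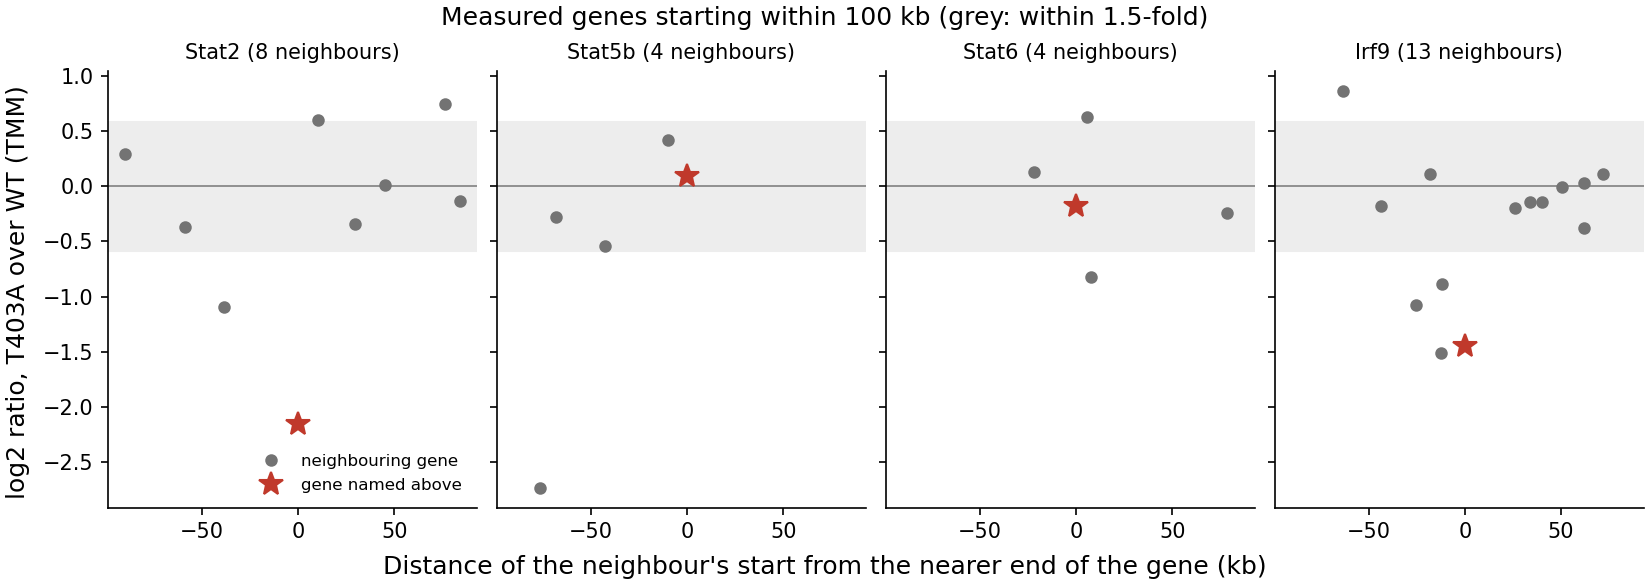
Log2 ratio T403A over WT of measured genes that start within 100 kb of Stat2, Stat5b, Stat6 and Irf9, the genes with at least 4 measured neighbours outside the family, against distance in kb (negative values are toward lower coordinates). The star is the gene itself and the grey band marks the range within 1.5-fold. Stat2 lies below all of its neighbours, whereas Irf9 lies among 3 lower genes on one side.

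Genes with a ratio most like that of Stat2 or Irf9 were ranked over 2 libraries only, among 8166 protein-coding genes whose mean was 10 CPM or more. For Stat2 the nearest were Aif1, Cd74 and Ppp1r9a, with log2 ratios of -2.15, -2.15 and -2.14. For Irf9 they were Clec4e, Agtrap and Gda, with log2 ratios of -1.46, -1.46 and -1.44. In all, 23 genes lay within 0.1 of the log2 ratio of Stat2 and 56 within 0.1 of that of Irf9, against 1756 for Stat3.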

How the data were processed

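Total RNA of T403A and WT macrophages was sequenced with Illumina HiSeq, 1 library each, per the labels' protocols. In the deposited table each Ensembl gene has a raw read count per library and a length in bases, per the file headers. Per the submitters' processing notes the build was GRCm38, and HTSeq 0.9.1, HISAT2, DESeq 1.30.0 and cutadapt 1.15 were used. The sources used here do not give their roles, the annotation or the strand setting, so reads of overlapping genes cannot be told apart. The deposited length equalled the GENCODE M21 exon union for 96.8% of genes, and 21969 genes were given a symbol.

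Counts were scaled with TMM (edgeR 4.0.16, R 4.3.3). CPM and RPKM were computed from the scaled counts, and intervals with scipy 1.17.1. The T403A library had 18658381 counts and the WT library 16033032. Measured genes had a summed count of at least 20, and calls needed 1.5-fold with an interval that excluded 1. With 1 library per group no test was run. Other scalings (library total, DESeq2 1.42.0 size factors, upper quartile, ribosomal protein genes, TMM without listed genes), count minimums and call rules were tried. The scoring was tested on simulated data. A planned comparison of the proteins was not made.

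The members and lists were chosen with earlier results of these data known. Named are the 7 genes, the kinases, from each list the 2 called genes with the largest ratio and the 2 most abundant, called neighbours, and the 3 genes most like a called member. Some genes are not reported here by name.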

Additional observations from a re-analysis of the deposited data

How the results depend on the processing

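Of 201 values under another setting, 177 stayed within the counting interval, or within 1.5 times for a count, and 24 moved. No called value changed sign, and Stat6, which was not called, did so under library totals. Scaling by library total raised all log2 ratios by 0.19, to -1.96 for Stat2, 0.24 for Stat3, 0.68 for Stat5a, 0.29 for Stat5b, 0.0121 for Stat6 and -1.26 for Irf9. It then called 1 of the 7 genes higher (Stat5a), 2290 of all measured genes higher and 890 lower (against 1515 higher and 1214 lower), and 1 kinase gene lower in place of 2. With the upper quartile the values were 0.12 for Stat3 and -0.11 for Stat6. In reads per kilobase, the shares in T403A became 10.3% for Stat2, 14.8% for Stat3, 0.319% for Stat4, 3.92% for Stat5a and 52.5% for Stat6. In WT they became 30.4% for Stat2, 9.46% for Stat3, 1.85% for Stat5a and 39.4% for Stat6. With the longest transcript, Stat2 ranked 3 and Stat5b ranked 4 in T403A. The share called lower was 73.9% for the longer ISRE and 50% for GAAA repeated 3 times with 2 bases between, against 29.2% for the ISRE core. Fewer genes hold the longer forms (23 and 20, against 360). At this depth the intervals of Stat4 and Stat5a include the 1.5-fold mark. No paired analysis was possible because each group has 1 library, and for the same reason no library could be left out.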

Other observations

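Of the 23 measured genes with the long ISRE, 6 were not called lower in T403A. They were Gna13, Ncoa7, 9930111J21Rik1, Orc2, Plekha4 and Bco2, with log2 ratios of -0.19, 0.30, -0.51, -0.06, 0.53 and 0.13. Orc2, a subunit of the origin recognition complex, was at 15.9 CPM in T403A and 16.7 CPM in WT with the element at -23 to -11. Plekha4 and Bco2 were weakly expressed, with at most 3.66 CPM in T403A and 2.53 CPM in WT. Among the 17 lower genes, Ifit1 and Ifit1bl2 share a single element, so the 23 genes are not 23 separate sites.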
